A study of Mus musculus with 4 samples.

Results

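Desmosome transcripts were followed in mouse mammary cells with and without ΔNp63, a p63 transcription factor without the N-terminal activation domain, made by basal epithelial cells. The set was 10 genes, chosen by name: the desmosomal cadherin genes Dsg2, Dsg3, Dsc2 and Dsc3, the plaque genes Dsp, Jup, Pkp1, Pkp2 and Pkp3, and the membrane gene Perp. All 10 were found by gene identifier among the 54393 identifiers of the count table, and all 10 passed the filter on low counts that left 18917 genes for testing. The study sequenced RNA from 4 libraries, each of 100000 cells, 1 for each genotype at each time point (n = 2 per genotype). WT libraries and Dnp63 cKO libraries (cKO below) came from glands taken 10 days or 5 weeks after tamoxifen (1.5 mg/ml), which was given at 4 weeks of age to induce the deletion. The labels describe the mice as iK14-Cre; DNp63 f/f and do not say which of these alleles the WT animals carried. Recombination is driven from the keratin 14 promoter, which is active in basal cells of the mammary gland and of other stratified epithelia. Cells with CD45, CD31 or ter119 were sorted out. How many animals each library held is not given, and no library has a replicate of the same genotype and time point. Error in the edgeR test came from how far the genotype difference departed between the 2 time points, with variance estimates shared over genes. Its p-values therefore do not measure a spread between replicate libraries or between animals.

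Desmosomes are spot-like junctions that tie the keratin filaments of neighbouring epithelial cells together. Desmogleins and desmocollins span the gap between cells, plakoglobin (Jup) and the plakophilins bind their tails in the plaque, and desmoplakin (Dsp) links the plaque to keratin filaments. In simple epithelia the cadherins are mainly Dsg2 and Dsc2, while Dsg3, Dsc3 and Pkp1 are known from stratified epithelia, and in the mammary gland both luminal and myoepithelial cells form desmosomes. Perp is a tetraspan membrane protein that desmosomes of stratified epithelia need, and its gene is a known target of p63 and p53.

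Counts summed to between 31714181 and 79122250 per library, the highest being WT at 5 weeks. Trp63 stood at 46.8 and 161 CPM (counts scaled to a common library size, with TMM factors) in WT at 10 days and 5 weeks and at 12.8 and 25.5 CPM in cKO. Luminal markers, none of them at 0 in any library, summed to between 8080 and 10281 CPM. The 4 keratins among them, Krt7, Krt8, Krt18 and Krt19, made up between 5544 and 7416 CPM. Both cKO libraries lay above both WT libraries for 2 of the 12 luminal markers, Prlr and Prom1 (22.6% of all genes tested). They lay below for 1, Ehf (23.3% of all genes tested). Fibroblast markers summed to 39569 and 31942 CPM in WT at 10 days and 5 weeks, against 38767 and 60650 CPM in cKO, so the libraries were not epithelium alone. Lineages that the sort was to remove were also present. Leukocyte markers summed to 48.7 and 35.7 CPM in WT, against 81.7 and 108 CPM in cKO, with Ptprc (CD45) at 9.32 and 7.26 CPM in WT, against 18.9 and 30.7 CPM in cKO. Endothelial markers summed to 98.4 and 128 CPM in WT, against 139 and 227 CPM in cKO, with Pecam1 (CD31) at 30.9 and 35.7 CPM in WT, against 33.9 and 55.9 CPM in cKO. Erythroid markers, the lineage of ter119, summed to 15.9 and 18.5 CPM in WT, against 7.02 and 43.7 CPM in cKO. Both cKO libraries lay above both WT libraries for 6 of 7 leukocyte, 5 of 6 endothelial and 4 of 4 adipocyte markers, beside 22.6% of all genes tested. This held for 0 of the 3 erythroid markers tested, and 0 of all these markers passed the edgeR test. Adipocyte markers summed to 95.4 and 118 CPM in WT, against 373 and 243 CPM in cKO.

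The 15 epidermal and squamous markers summed to 844 and 4273 CPM in WT at 10 days and 5 weeks, against 168 and 232 CPM in cKO, with Flg at 0 in both cKO libraries and Sprr1b at 0 in cKO at 10 days. Of the 14 tested, 4 passed for genotype, all lower in cKO (Krt13, Krt6b, Krtdap and Spink5). Without its 6 keratins that list summed to 102 and 739 CPM in WT, against 41.5 and 72.2 CPM in cKO. The 11 basal markers summed to 6088 and 18122 CPM in WT, against 2324 and 2487 CPM in cKO, of which 4 keratins made up 3515 and 16088 CPM in WT and 844 and 798 CPM in cKO. The other 7 basal markers summed to 2573 and 2033 CPM in WT, against 1480 and 1689 CPM in cKO, so that their sum was lower at 5 weeks in WT. Not all 7 were: in WT, Trp63, Itga6 and Cdh3 stood at 46.8, 314 and 64.4 CPM at 10 days and at 161, 502 and 104 CPM at 5 weeks. Among the 7, the contractile gene Acta2 stood at 1267 and 690 CPM in WT, against 624 and 772 CPM in cKO, and Acta2, Myh11, Oxtr and Cnn1 overlapped between genotypes. The keratins of these lists, most other squamous markers, Trp63, Itga6 and Cdh3 had the same order of libraries by genotype as most desmosome genes. The contractile markers did not. The part of any of these marker groups in the results was not tested. In bulk libraries such as these, fewer cells of a type and less RNA per cell cannot be told apart.

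Most desmosome transcripts were less abundant in cKO than in WT, and the widest gap was in Dsg3. In 8 of the 10 genes both cKO libraries lay below both WT libraries, an arrangement that 23.3% of all genes tested also showed in that direction. The exceptions were Dsc3 and Pkp2. The median log2 fold change for genotype over the 10 genes was -1.45, from -4.79 to 0.03, beside a median of -0.01 over all genes tested. With time point held constant, 1 of the 10, Dsg3, passed an adjusted p of 0.05 in edgeR's quasi-likelihood test, where 0.0529% of all genes passed in the lower direction. An unadjusted p under 0.05 was reached by 7 of the 10, all lower in cKO, against 5.8% of all genes. The count of calls differed between tools: DESeq2 called 6 of the 10 lower (Dsg3, Dsc2, Dsp, Pkp1, Pkp3 and Perp; 1.55% of the genes to which it gave an adjusted p) and limma-voom called Dsg3 (0.132% of all genes). Without WT at 10 days, and with no time term, 5 of the 10 were called lower (Dsc2, Dsc3, Dsp, Pkp1 and Perp; 0.295% of the genes tested in that fit), but WT at 5 weeks is then the only WT library and is assumed to vary as the cKO libraries do. With any one of the other 3 libraries left out, few or no genes of any kind were called. The lack of desmosome genes among them is therefore not read as a result about these genes.

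**Figure D1:**
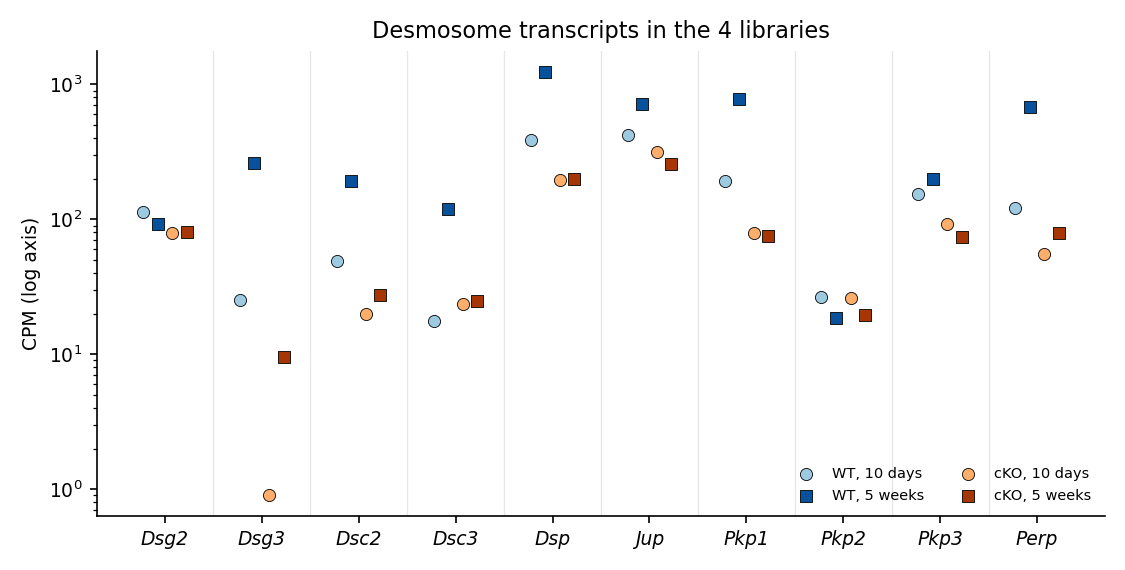
Level of each desmosome gene in the 4 libraries, in CPM on a log axis, with 1 point per library (circles, 10 days; squares, 5 weeks; blue, WT; orange and brown, cKO). WT at 5 weeks is the highest point for 8 of the 10 genes (29% of all genes tested), and Dsg3 spans the widest range, from 0.913 to 263 CPM.

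The 2 desmogleins had unlike values. Dsg3 (ENSMUSG00000056632.8, GRCm38 chromosome 18, 20510274 to 20547459) encodes a cadherin of the basal layers of stratified epithelia and stood at 25.1 and 263 CPM in WT at 10 days and 5 weeks, against 0.913 and 9.48 CPM in cKO. The cKO level was 3.63% of WT at 10 days (95% interval 2.42% to 5.25%) and 3.61% at 5 weeks (3.23% to 4.03%). These intervals are exact binomial ones and, like the others for single libraries below, cover counting error only. These percentages differed by less than that error between the 2 time points, although Dsg3 in cKO at 10 days rested on 29 counts. On the log2 scale the Dsg3 difference between genotypes was -4.72 at 10 days and -4.78 at 5 weeks, and this closeness makes its SE small. For Dsg3 the fold change on the log2 scale was -4.79 (SE 0.227, n = 2 libraries of each genotype, edgeR adjusted p = 0.00998). Without the time term it was -4.79 with adjusted p = 0.438, and leaving out 1 library, again without that term, gave -7.30 to -2.27 and was not called (adjusted p from 0.530 to 0.795). Dsg2 (ENSMUSG00000044393.15, chromosome 18, 20558074 to 20604521), the desmoglein present in nearly all desmosomes, stood at 114 and 92.2 CPM in WT at 10 days and 5 weeks, against 79.6 and 80.8 CPM in cKO. All 4 Dsg2 values lay close together, with both cKO libraries lowest. Its log2 fold change was -0.36 (SE 0.200, edgeR adjusted p = 0.561).

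The desmocollins, the partners of desmogleins across the gap, differed from Dsg3 in how the genotypes compared at each time point. Dsc2 (ENSMUSG00000024331.11, chromosome 18, 20030633 to 20059554), the widely expressed desmocollin, stood at 49.5 and 191 CPM in WT at 10 days and 5 weeks, against 19.8 and 27.7 CPM in cKO. Both cKO libraries were below both WT libraries, and cKO was 40.1% of WT at 10 days (36.5% to 44.0%) and 14.5% at 5 weeks (13.6% to 15.5%). The log2 fold change of Dsc2 was -2.05 (SE 0.425, unadjusted p = 0.00742, adjusted p = 0.280 in edgeR), and leaving out WT at 5 weeks, with no time term, gave -1.05, while leaving out WT at 10 days gave -3.00. Dsc3 (ENSMUSG00000059898.9, chromosome 18, 19960930 to 20002351), the desmocollin of basal layers in stratified epithelia, stood at 17.6 and 119 CPM in WT, against 23.6 and 24.7 CPM in cKO. At 10 days Dsc3 in cKO was 134% of WT (120% to 149%), and at 5 weeks it was 20.7% of WT (19.3% to 22.3%). WT at 5 weeks stood alone, with the other 3 libraries between 17.6 and 24.7 CPM. The Dsc3 log2 fold change of -0.93 (SE 0.847, edgeR adjusted p = 0.748) combines opposite directions, and without WT at 5 weeks, with no time term, it was 0.46 (-2.30 without WT at 10 days). Dsg3 and Dsc3, both genes of basal layers, therefore had cKO levels of 3.63% and 134% of WT in the same pair of libraries at 10 days.

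Dsp and Jup encode plaque proteins shared by desmosomes of all kinds. Dsp (ENSMUSG00000054889.10, chromosome 13, 38151294 to 38198577) stood at 388 and 1239 CPM in WT at 10 days and 5 weeks, against 196 and 199 CPM in cKO. The cKO libraries were alike and both below WT, at 50.5% of WT at 10 days (49.0% to 52.1%) and 16.1% at 5 weeks (15.7% to 16.5%). The log2 fold change of Dsp was -1.81 (SE 0.483, unadjusted p = 0.0149, adjusted p = 0.327 in edgeR), and leaving out WT at 5 weeks or at 10 days, with no time term, gave -0.97 and -2.65. Jup (ENSMUSG00000001552.14, chromosome 11, 100368958 to 100397763), which also serves adherens junctions, stood at 421 and 716 CPM in WT, against 317 and 255 CPM in cKO. Again both cKO libraries were lowest, at 75.3% of WT at 10 days (73.4% to 77.3%) and 35.7% at 5 weeks (34.9% to 36.5%). Its log2 fold change was -0.95 (SE 0.346, unadjusted p = 0.0374, adjusted p = 0.401 in edgeR), and -0.55 and -1.32 in those fits.

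The promoter table used here, from RefSeq on GRCm38.p6, held windows for 2 of the 10 genes, Dsp and Jup, and these are shown because both transcripts were below WT in both cKO libraries. Each is the 250 bases before the start site, 5′ to 3′ on the gene's strand, at chr13:38151044-38151293 for Dsp (plus strand) and chr11:100397791-100398040 for Jup (minus strand). Capitals mark matches, on either strand, to the p53-family decamer (p53, p63 and p73 bind a pair of such degenerate decamers) and to the GC box GGGCGG.
Dsp: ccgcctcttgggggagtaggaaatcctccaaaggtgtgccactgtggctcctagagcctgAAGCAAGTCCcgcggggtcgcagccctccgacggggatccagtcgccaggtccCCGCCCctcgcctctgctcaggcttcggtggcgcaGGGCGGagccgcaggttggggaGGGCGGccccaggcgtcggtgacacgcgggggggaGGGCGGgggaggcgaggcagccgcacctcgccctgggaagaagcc
Jup: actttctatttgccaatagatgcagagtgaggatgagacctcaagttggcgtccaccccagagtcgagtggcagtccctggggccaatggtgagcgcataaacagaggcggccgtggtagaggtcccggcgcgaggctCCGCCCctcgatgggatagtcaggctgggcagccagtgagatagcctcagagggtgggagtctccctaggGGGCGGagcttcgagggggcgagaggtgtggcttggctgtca
The Dsp window held 1 p53-family decamer match, AAGCAAGTCC, beginning 190 bases before the start, and 4 GC boxes. The Jup window held 0 decamer matches and 2 GC boxes. Among 32536 distinct windows of this length, 7.12% held at least 1 decamer match and 33.0% at least 1 GC box. CCAAT was found 2 times in the Jup window and 0 times in the Dsp window (33.8% of all windows held it), and TATAAA in neither (12.3% of all windows). None of these motifs overlapped another in the 2 windows. GC content was 72.4% for Dsp and 62% for Jup, beside a median of 52.4% over all windows. A match is a description of the letters and shows no binding.

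The 3 plakophilins, armadillo proteins that cluster the cadherins and recruit desmoplakin, spread from a wide genotype gap to none. Pkp1 (ENSMUSG00000026413.12, chromosome 1, 135871395 to 135919207), known from stratified epithelia, stood at 193 and 779 CPM in WT at 10 days and 5 weeks, against 79.1 and 74.8 CPM in cKO. Its cKO level was 41.0% of WT at 10 days (39.1% to 42.9%) and 9.61% at 5 weeks (9.23% to 10.0%), with no overlap between genotypes. The log2 fold change of Pkp1 was -2.33 (SE 0.627, unadjusted p = 0.0218, adjusted p = 0.358 in edgeR), and leaving out WT at 5 weeks, with no time term, gave -1.32, while leaving out WT at 10 days gave -3.34. Pkp3 (ENSMUSG00000054065.12, chromosome 7, 141078218 to 141090510), present in most epithelial desmosomes, stood at 153 and 199 CPM in WT, against 92.1 and 73.5 CPM in cKO, and again the genotypes did not overlap. Its log2 fold change was -1.08 (SE 0.250, unadjusted p = 0.00581, adjusted p = 0.263 in edgeR). Pkp2 (ENSMUSG00000041957.15, chromosome 16, 16213318 to 16272712), the plakophilin of simple epithelia and heart, stood at 26.4 and 18.7 CPM in WT, against 26.2 and 19.6 CPM in cKO. The genotypes interleaved, and cKO was 99.2% of WT at 10 days (90.2% to 109%) and 105% at 5 weeks (95.9% to 116%). The log2 fold change of Pkp2 was 0.03 (SE 0.221, edgeR adjusted p = 0.974).

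Perp (ENSMUSG00000019851.8, chromosome 10, 18845020 to 18857073) stood at 121 and 676 CPM in WT at 10 days and 5 weeks, against 55.0 and 79.1 CPM in cKO. Both cKO libraries lay below both WT libraries, at 45.3% of WT at 10 days (42.8% to 47.9%) and 11.7% at 5 weeks (11.2% to 12.2%). The log2 fold change was -2.12 (SE 0.576, unadjusted p = 0.0216, adjusted p = 0.358 in edgeR). Without WT at 5 weeks, with no time term, it was -0.86, and without WT at 10 days it was -3.33.

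**Figure D2:**
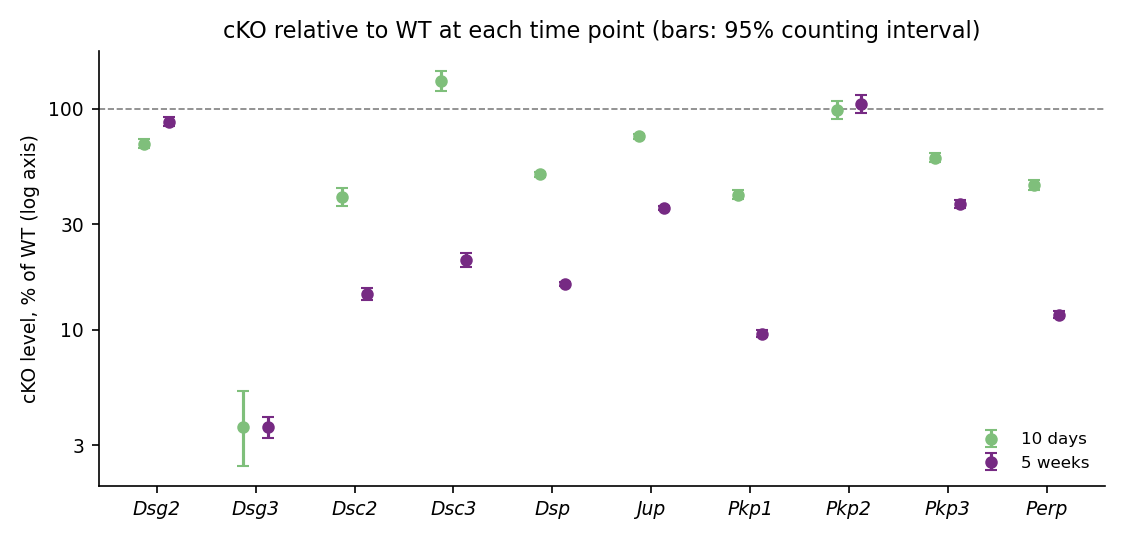
Level in cKO as a percent of WT for each gene at 10 days (green) and 5 weeks (purple), on a log axis, with exact 95% counting intervals and a dashed line at 100%. Dsg3 sits at 3.63% and 3.61%, Pkp2 at 99.2% and 105%, and for 7 of the 8 remaining genes the 5-week point is the lower one.

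The genotype gap was wider at 5 weeks than at 10 days for most members, and for most of them the WT libraries differed more between time points than the cKO libraries did. At 10 days 4 of the 10 genes stood at least 2-fold lower in cKO (Dsg3, Dsc2, Pkp1 and Perp), where 7.45% of all genes did. At 5 weeks 8 of the 10 did, the exceptions being Dsg2 and Pkp2, where 6.54% of all genes did. The median log2 ratio of cKO to WT over the 10 genes was -0.86 at 10 days and -2.45 at 5 weeks, beside 0.00 and -0.01 over all genes. Whether the gap differs between time points could not be tested, because genotype, time and their combination leave no residual among 4 libraries.

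Between time points, WT at 5 weeks was at least 2-fold above WT at 10 days for 6 of the 10 genes (Dsg3, Dsc2, Dsc3, Dsp, Pkp1 and Perp), against 7% of all genes. In cKO this held for 1 of the 10, Dsg3, against 6.02% of all genes. Dsp, Pkp1, Dsc3 and Dsg2 each differed little between the cKO libraries, with ratios of 5 weeks to 10 days of 1.02, 0.947, 1.05 and 1.02, whereas the same ratios in WT were 3.20, 4.04, 6.77 and 0.808. Dsg3 was unlike them, being 10.4-fold higher at 5 weeks than at 10 days in both WT and cKO. With genotype held constant, Dsg3 was the 1 member that passed for time (log2 fold change 3.38, SE 0.215, edgeR adjusted p = 0.0231; 0.0159% of all genes passed in the higher direction). Without WT at 5 weeks, and with no genotype term, its time difference was -0.46 (adjusted p = 0.990), a fit in which the 5-week arm is the cKO library alone. DESeq2 called Dsg3 and Perp higher at 5 weeks (0.582% of the genes to which it gave an adjusted p), and limma-voom called Dsg3 (0.0793%). The summed level of the 15 epidermal and squamous markers was also higher at 5 weeks, 5.06-fold in WT and 1.39-fold in cKO, and 1 of them, Krt13, passed for time. Single markers in cKO varied: Krt13, Krtdap, Krt10, Krt1 and Spink5 were 7.80-, 10.7-, 11.5-, 24.1- and 32.4-fold higher at 5 weeks, beside 10.4-fold for Dsg3. Their counts in cKO at 10 days were low, from 3 (Spink5) to 84 (Krt10). Sprr1a, Krt4, Sbsn, Krt6b, Ivl and Calml3 were 1.53- to 2.02-fold higher in cKO. Not every marker was higher: Krt6a (110 and 89.0 CPM at 10 days and 5 weeks), the largest part of the cKO sum, and Lor in cKO, and Sprr1b in WT, were lower at 5 weeks. The part of these markers in the Dsg3 difference was not tested.

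**Figure D3:**
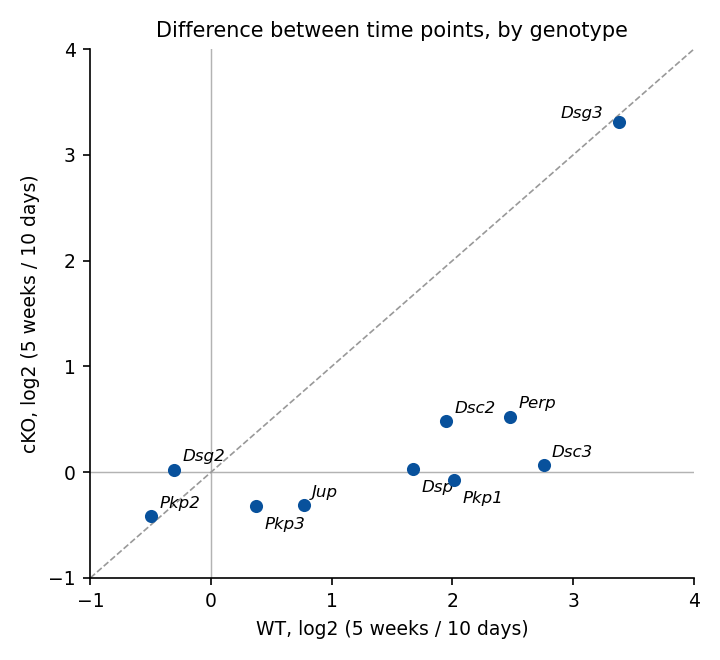
Log2 ratio of 5 weeks to 10 days in WT (horizontal) and in cKO (vertical), with 1 point per gene and a dashed line where the genotypes would be equal. Dsg3 lies near the line at 3.38 and 3.31, and 7 genes with positive values in WT lie between -0.32 and 0.52 in cKO.

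Levels of the genes relative to each other were compared per kilobase of exon (CPM divided by the combined exon length of the gene). In mean level per kilobase over the 4 libraries the order was Perp (119), Jup (66.4), Pkp1 (56.0), Dsp (52.3), Pkp3 (35.8), Dsc2 (13.6), Dsg2 (11.1), Dsg3 (10.7), Dsc3 (8.57) and Pkp2 (4.24). SDs over the 4 libraries were 152 for Perp but 1.93 for Dsg2 and 0.773 for Pkp2. They include the differences by genotype and time, so they cannot show whether neighbours in this order differ. Pkp3 above Dsc2 was the 1 neighbouring step that held in all 4 libraries, and it split the 5 more abundant genes from the cadherins and Pkp2. With the length of the longest transcript in place of all exons, Jup (133) stood above Perp (119), and Dsg2 above Dsc2. Summed over the 10 genes, the level per kilobase was 283 in WT and 162 in cKO at 10 days, and 906 in WT and 161 in cKO at 5 weeks. The cKO sums were thus nearly equal at the 2 time points.

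Within each family the mix of genes differed between libraries. Dsg3 made up 20.7% and 77.1% of desmoglein transcripts (Dsg2 plus Dsg3, per kilobase) in WT at 10 days and 5 weeks and 1.34% and 12.2% in cKO. Dsg2 was therefore the more abundant desmoglein in 3 of the 4 libraries, the exception being WT at 5 weeks. Dsc3 made up 25.8% and 37.9% of desmocollin transcripts (Dsc2 plus Dsc3) in WT and 53.8% and 46.6% in cKO, so its share was higher in both cKO libraries. Pkp1 made up 44.8% and 72.6% of plakophilin transcripts in WT and 34.2% and 38.3% in cKO, Pkp3 49.4% and 25.7% in WT and 55.2% and 52.3% in cKO, and Pkp2 5.75% and 1.63% in WT and 10.6% and 9.42% in cKO.

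**Figure D4:**
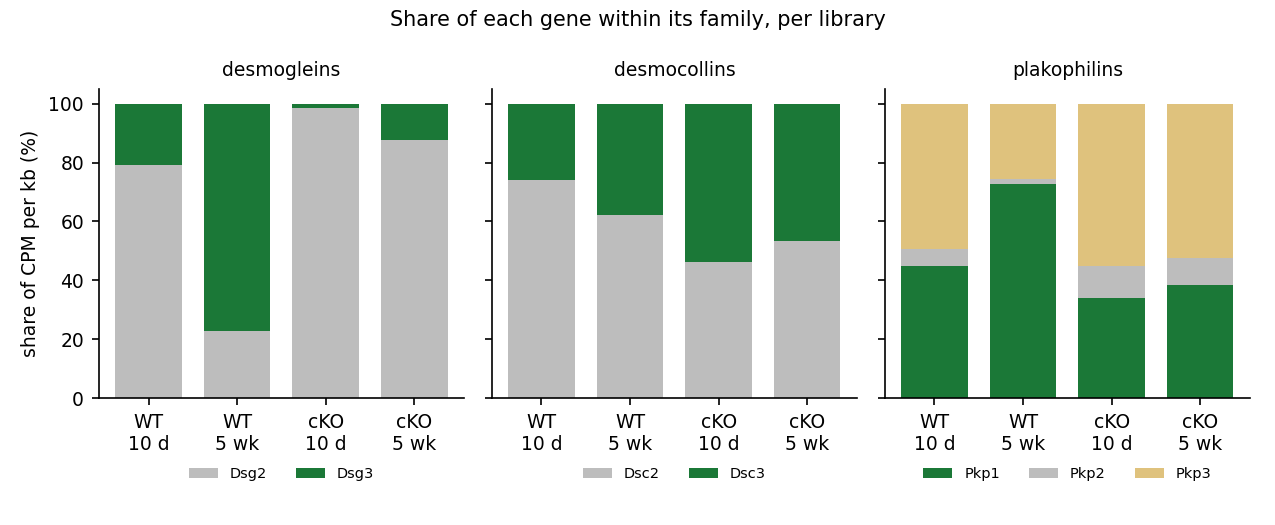
Share of each gene in its family's summed level per kilobase of exon, in percent, with 1 stacked bar per library for desmogleins, desmocollins and plakophilins. The Dsg3 part is 77.1% in WT at 5 weeks and 1.34% in cKO at 10 days, and the Dsc3 part is 53.8% and 46.6% in the cKO libraries.

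The same contrasts were tested as log2 count ratios within a library, which do not depend on scaling between libraries. The ratio of Dsg3 to Dsg2 was -2.18 and 1.51 in WT at 10 days and 5 weeks and -6.38 and -3.09 in cKO, a difference between genotype means of -4.40. The ratio of Dsc3 to Dsc2 was -1.49 and -0.68 in WT and 0.25 and -0.16 in cKO, a difference of 1.13 in the opposite direction. Pkp1 to Pkp2 differed by -2.36 (2.87 and 5.38 in WT, 1.59 and 1.93 in cKO) and Pkp1 to Pkp3 by -1.25 (0.33 and 1.97 in WT, -0.22 and 0.03 in cKO). In each of the 4 pairs the genotypes did not overlap, but both plakophilin pairs hold Pkp1. The share of other gene pairs with no overlap was not counted, so this is not read as a trait of the set. A 2-sided exact permutation test gave p = 0.333 for every pair (0.333 after Benjamini-Hochberg adjustment over the 4), the smallest p that 2 against 2 libraries allow.

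Other junction and filament genes were read from lists of related genes. Of 9 other desmosome and cornified-junction genes, 5 were tested and 0 passed for genotype, with a median log2 fold change of -0.70. The epidermal desmoglein genes Dsg1a and Dsg1b among them were scarce: Dsg1b stood at 5.34 and 12.4 CPM in WT, against 0.189 and 0.884 CPM in cKO (log2 fold change -4.21, edgeR adjusted p = 0.0947), and Dsg1a at 2.12 and 8.99 CPM in WT, against 0.0944 and 5.48 CPM in cKO. These are near-identical neighbours that can share reads, so their single values are uncertain, and both were singled out with their values known. The most abundant of that list, the plakin gene Ppl and the plakophilin relative Pkp4, stood at -0.21 (SE 0.214) and -0.70 (SE 0.211) on that scale. Of 11 adherens junction genes 0 passed (median -0.23), with β-catenin (Ctnnb1) at -0.23 (SE 0.261) and E-cadherin (Cdh1) at -0.51 (SE 0.248). Their most negative value was that of P-cadherin (Cdh3), the classical cadherin of basal cells, at -2.14 (SE 0.238, edgeR adjusted p = 0.0949), and it was singled out with its value known.

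Keratins, the filaments that desmosomes anchor, differed by class. Of 4 basal keratin genes 1 passed, Krt15 (-4.03, SE 0.294, edgeR adjusted p = 0.0351), and the 2 most abundant, Krt5 (-4.05, SE 0.657) and Krt14 (-3.17, SE 0.728), did not. Of 7 suprabasal and squamous keratin genes 2 passed, Krt13 (-6.21, SE 0.252) and Krt6b (-5.39, SE 0.239), both with adjusted p = 0.00998 in edgeR, and the most abundant, Krt6a (-3.30) and Krt16 (-4.92), did not. Krt15 was not called with median-of-ratios or upper-quartile factors (adjusted p = 0.0530 and 0.0563 in edgeR), and with no time term none of Krt15, Krt13 and Krt6b was called with all 4 libraries (0.343 to 0.405). With 1 library left out and no time term, Krt6b was called without WT at 10 days (adjusted p = 0.0498) and the other calls of these 3 genes were lost (0.109 to 0.768). Krt6a and Krt6b are close paralogs whose reads may be shared. The median was -3.60 for the basal and -4.16 for the suprabasal and squamous class. Of 4 simple keratin genes 0 passed, with a median of 0.04, and Krt8 and Krt18 of luminal cells stood at 0.06 (SE 0.369) and 0.07 (SE 0.336). Among 4 armadillo and plakin relatives 0 passed (median -0.02), with the plakin genes Dst at 0.01 (SE 0.326) and Plec at -0.06 (SE 0.361). The log2 fold change of Pkp2 (0.03) lay within the range of the simple keratins (-0.07 to 0.07), and that of Dsg2 (-0.36) lay below it. Dsg3 (-4.79) lay below every basal keratin (-4.05 to -1.58) and within the suprabasal and squamous range (-6.21 to -2.82). Dsc2 (-2.05), Dsp (-1.81), Pkp1 (-2.33) and Perp (-2.12) lay within the basal range. Dsc3 (-0.93), Jup (-0.95) and Pkp3 (-1.08), like Dsg2, lay in no class, between the simple and basal ranges. Differences between classes were not tested.

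**Figure D5:**
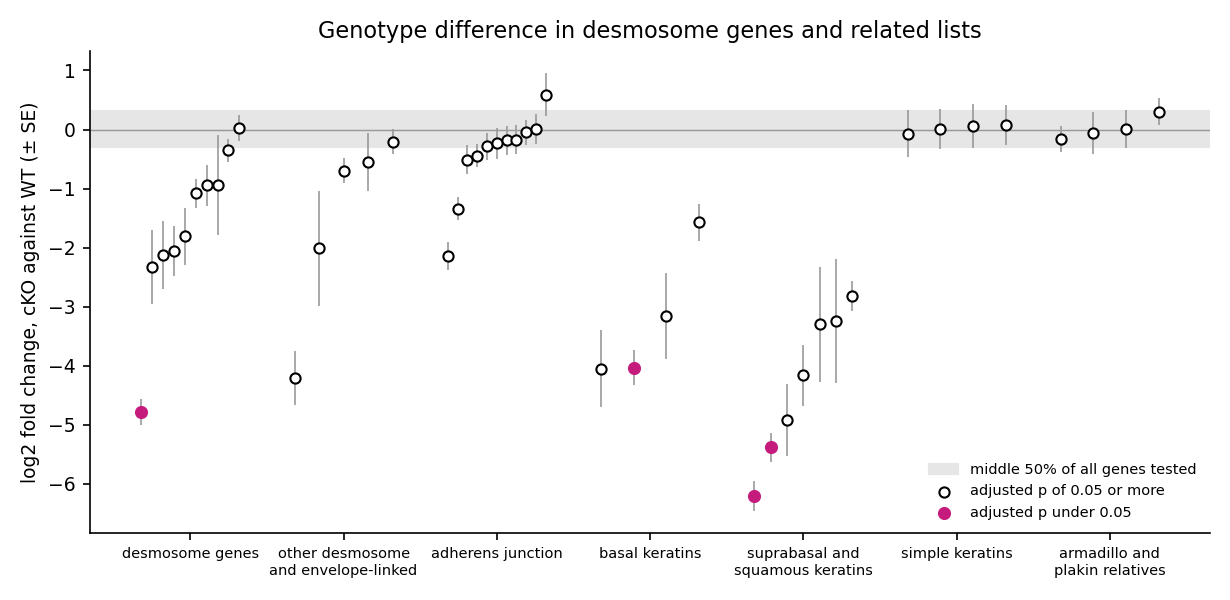
Log2 fold change for genotype (cKO against WT, time held constant) with its SE for the desmosome genes and 6 related lists, 1 point per gene tested. Filled points passed an adjusted p of 0.05 (Dsg3, Krt15, Krt13 and Krt6b), and the grey band is the middle 50% of all genes tested, from -0.29 to 0.32.

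Genes with the most similar profiles were found from the root mean square difference of centred log2 CPM over the 4 libraries, among 11928 genes of at least 5 CPM on average. Closest to Dsg3 were Krtdap (0.151), a keratinocyte differentiation gene, and the transmembrane protease genes Tmprss11b (0.335) and Tmprss11g (0.335). Closest to Perp were the mitochondrial creatine kinase gene Ckmt1 (0.101), the focal adhesion gene Tns4 (0.115) and Sh3rf2 (0.139). Dsp was nearest to Adam8 (0.112), Plek2 (0.133) and Slc29a2 (0.150), and Dsg2 to Leo1 (0.0106), Ankrd13b (0.0119) and Nt5dc3 (0.0233). Among the members themselves Perp was nearest to Dsc2 (0.191), Pkp1 (0.289) and Dsp (0.367). Dsg3 was far from every other member, the nearest being Perp at 1.68. These distances describe 4 libraries that differ in depth and cell mix, and carry no test.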

How the data were processed

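The authors deposited estimated counts, all whole numbers, for 54393 versioned Ensembl identifiers in 4 libraries, and the table had 0 columns from elsewhere. Per the submitters' processing notes, Salmon and the build GRCm38 were used, without their role or version. No annotation and no strand setting is given in the sources used. Symbols, positions and exon lengths came from GENCODE M21, which matched all 54393 identifiers. Gene-level counts hold all isoforms, and reads that paralogs share may have been divided between them. On the other strand, Gm16090 and Gm10129 share exon bases with Dsg2 and Dsp and held at most 1 and 10 counts.

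Genotype and time labels defined the groups. The 18917 genes that passed filterByExpr (minimum count 10) held 99.9% of counts. They were normalised by TMM and tested with robust quasi-likelihood fits in edgeR 4.0.16 under R 4.3.3, with time and genotype as terms and 1 residual degree of freedom. P-values were adjusted over all genes by Benjamini-Hochberg, with a threshold of 0.05. SEs were derived from each log2 fold change and the root of its F statistic. Log2 ratios between 2 libraries take a prior count of 2. The labels carry no replicate numbers. The time term, called the replicate block below, pairs WT with cKO at each time point and does not stand for true replicates. Code was tested on simulated data. Alternatives were DESeq2 1.42.0, limma-voom (limma 3.58.1), other size factors, no filter, a prior count of 0.5, 1 factor alone, longest-transcript lengths and leaving out each library. The members and lists were chosen with earlier results of these data known. Besides the members and Trp63, the rule named the genes that passed for genotype and the 2 most abundant of each related junction, keratin, armadillo or plakin list, and the 3 nearest in profile to Dsg3, Perp, Dsg2 and Dsp. Dsg1a, Dsg1b, Cdh3 and the single markers of cell types named in the text fall outside it and were chosen with their values known. Precision was lowest for Dsg3 in cKO at 10 days, with 29 counts. A note in the labels on gland age could not be matched to the time points and was not used.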

Additional observations from a re-analysis of the deposited data

Results flagged for a closer look

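In 6 of the 10 genes a difference had opposite directions in the 2 genotypes or at the 2 time points, with 1 library on each side and no test of the difference. The share of all genes tested with such a reversal was not counted, so this number is not read as a trait of the set. For Dsc3 the log2 ratio of cKO to WT stood at 0.42 (10 days) and -2.27 (5 weeks), a difference of -2.69, and the counting intervals of both lay clear of equality. Pkp2 had -0.01 and 0.07, a difference of 0.085, and both of its counting intervals included equality. For the time difference, the value in cKO minus that in WT was -2.09 for Pkp1 (-0.08 against 2.01), -1.08 for Jup (-0.31 against 0.77), -0.70 for Pkp3 (-0.32 against 0.38) and 0.33 for Dsg2 (0.02 against -0.31). The epidermal and squamous marker sum was 5.06 times as high at 5 weeks as at 10 days in WT and 1.39 times as high in cKO. Single markers in cKO ran from lower at 5 weeks (Krt6a) to 32.4 times as high (Spink5, with 3 counts at 10 days). The part of these markers in the differences above was not tested.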

How the results depend on the processing

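The genotype direction of 8 of the 10 desmosome genes was kept under all 10 alternatives, the exceptions being Dsc3 (-2.30 to 0.46 without 1 library, reversed without WT at 5 weeks) and Pkp2 (-0.21 to 0.30 without 1 library, reversed without cKO at 10 days and, at -0.20, without WT at 5 weeks). Fits without 1 library used 1 factor alone. The number of desmosome genes called for genotype was 1, against 7 with no filter on low counts, 6 by DESeq2, 0 without the replicate block (no time term) and 0 to 5 without 1 library. For all genes it was 11, against 5 with median-of-ratios factors, 3 with upper-quartile factors, 1235 with no filter, 512 by DESeq2, 29 by limma-voom, 0 without the replicate block (2182 at an unadjusted p under 0.05) and 0 to 61 without 1 library. The median genotype log2 fold change of the 10 genes ran from -2.48 to -0.87 without 1 library. For time, 12 genes were called, against 638 with no filter, 192 by DESeq2, 39 by limma-voom, 1 without the replicate block and 0 to 19 without 1 library. Desmosome genes called for time numbered 1, against 3 with no filter, 2 by DESeq2, 0 without the replicate block and 0 without any 1 library. The median time log2 fold change was 0.91 and ran from -0.44 to 2.25 without 1 library. Time directions reversed without WT at 5 weeks for 7 genes, whose log2 fold changes without 1 library ran from -0.46 to 7.22 for Dsg3, -0.32 to 2.47 for Dsc2, -0.55 to 2.07 for Dsp, -0.86 to 2.50 for Pkp1, -0.74 to 0.68 for Pkp3, -0.53 to 0.94 for Jup and -0.16 to 2.92 for Perp. Dsg2 reversed without WT at 10 days (-0.43 to 0.13), and Pkp3 also without cKO at 10 days (-0.20). In these fits the arms hold unequal numbers of each genotype. The cause of the other differences was not tested. The paired log2 ratios kept their direction with a prior count of 0.5 and without any 1 library, from -6.24 to -2.55 for Dsg3 to Dsg2, 0.72 to 1.53 for Dsc3 to Dsc2, -3.62 to -1.11 for Pkp1 to Pkp2 and -2.07 to -0.43 for Pkp1 to Pkp3.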
